A study of Homo sapiens with 4 samples.

Results

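The PIM kinase genes PIM1, PIM2 and PIM3, the feedback inhibitor genes CISH, SOCS1, SOCS2 and SOCS3, and the transcription factor genes STAT5A and STAT5B were measured in MOLM-14 cells on 4 whole-transcript arrays from Affymetrix. These 9 genes were taken by their symbol from 24241 named genes, and each was measured by a single gene-level probe set. MOLM-14 is an established human acute myeloid leukaemia line. In the control group, GSK621, which activates AMPK, a kinase that senses low cellular energy, was given to 2 cultures for 6 h at 30 µM. The second group of 2 cultures received rapamycin, an inhibitor of the kinase complex mTORC1, at 10 nM for 12 h and then the same GSK621 treatment. All 4 cultures thus received GSK621, and cells without it or with rapamycin alone were not analysed here. The labels call the cultures biological replicates, so n = 2 per group, and all comparisons were made in 1 cell line. In bulk RNA a change in the number of cells of a kind and a change in RNA per cell cannot be told apart.

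STAT5A and STAT5B are closely related transcription factors that cytokine receptors and the receptor kinase FLT3 activate by phosphorylation, after which they form dimers and enter the nucleus. MOLM-14 carries an activating internal tandem duplication of FLT3, and that form of the receptor is known to signal to STAT5. Among the classic STAT5 target genes are PIM1, which encodes a serine/threonine kinase that favours survival and growth, and CISH, SOCS1, SOCS2 and SOCS3, whose products bind receptors or Janus kinases and dampen the same signal. PIM kinases need no activating phosphorylation by another kinase, so their amount is set largely by transcription, translation and decay. They share several substrates with the AKT and mTORC1 pathway.

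A STAT5 dimer is known to bind the palindrome TTCNNNGAA, and the promoter windows of the members were searched for these letters. The windows came from RefSeq on build GRCh38.p14 and covered 250 bases before to 50 bases after each annotated start. Of the 9 genes, 8 had a window, 11 windows in all, and SOCS2 was not analysed here. The motif is its own reverse complement, so 1 search covers both strands. The CISH window held 4 matches that did not overlap each other, and the other 10 windows held none. Of 35116 windows of the same length, 7.66% held a match and 0.0199% held 4, the highest number in any window. In CISH the matches began at positions −241, −230, −129 and −112, counted from −1 at the base before the start, and so formed a distal and a proximal pair, with 11 and 17 bases from first base to first base. The bases before the start are shown for CISH, which carried the matches, and for PIM1, which had the largest difference between the treatments among the 9 genes. Capitals mark the motif, and both sequences run 5′ to 3′ on the strand of the gene. The CISH sequence is chr3:50611775-50612024 on the minus strand, and the PIM1 sequence is chr6:37169902-37170151 on the plus strand.
CISH: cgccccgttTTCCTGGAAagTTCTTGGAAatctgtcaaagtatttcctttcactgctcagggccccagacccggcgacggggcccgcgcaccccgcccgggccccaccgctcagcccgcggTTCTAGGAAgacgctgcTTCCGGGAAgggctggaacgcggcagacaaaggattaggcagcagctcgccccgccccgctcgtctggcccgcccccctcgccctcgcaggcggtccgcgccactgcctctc
PIM1: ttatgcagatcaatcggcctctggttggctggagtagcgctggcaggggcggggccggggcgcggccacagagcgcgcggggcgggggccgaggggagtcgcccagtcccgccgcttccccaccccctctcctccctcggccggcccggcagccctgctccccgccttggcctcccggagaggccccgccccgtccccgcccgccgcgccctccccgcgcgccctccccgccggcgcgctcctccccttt
The PIM1 sequence was 79.6% G and C against 68.8% for that of CISH. A match describes letters and is not a bound site, and the absence of a match concerns this window alone.

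The arrays were alike in scale, with medians between 5.37 and 5.43 on the log2 scale over 25582 probe sets. Detection calls were not used here, so dim values may be background, and the number of arrays limits the precision. Of 10 myeloid and leukaemia markers, 7 were measured. Their averages were 9.34 and 9.37 on the GSK621 arrays against 9.35 and 9.42 after rapamycin and GSK621. Single values of these myeloid markers ran from 6.02 to 11.78, lowest for MPO and highest for LYZ. Markers of T cells lay between 3.70 and 4.48, of B cells between 3.32 and 5.69 and of erythroid cells between 2.40 and 4.13. Epithelial markers (3.64 to 6.86, highest for KRT8) and fibroblast markers (2.58 to 6.44, highest for COL1A1) reached into the myeloid range. Of the 3 natural killer markers, KLRD1 lay between 2.71 and 2.83, NKG7 between 7.50 and 7.63, and NCAM1, which some myeloid leukaemias also express, between 8.76 and 9.04. Their part in the results was not tested. With limma, 0 of 24241 genes passed an adjusted p under 0.05 between the treatments, the smallest adjusted p was 0.172, and 2064 genes had an unadjusted p under 0.05.

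The members were chosen by name with the log2 difference between the treatments known, that of PIM1 among the largest, so their differences are descriptions without a test. PIM1 was higher after rapamycin and GSK621, CISH was higher by less, and the remaining 7 genes differed by at most 0.27 on the log2 scale. In 5 genes both arrays after rapamycin lay above both GSK621 arrays, in 3 both lay below, and in SOCS1 the groups overlapped. Over all genes, 39.4% had groups that did not overlap, 20.5% with higher and 18.9% with lower values after rapamycin. The same contrast chose the members, so nothing is read from this count.

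PIM1 had values of 8.16 and 8.17 after GSK621 and of 9.57 and 9.52 after rapamycin and GSK621. The groups were separated by 1.35 between their nearest arrays, while the arrays within a group differed by at most 0.05. The means were 8.16 ± 0.01 (SD, n = 2) and 9.54 ± 0.03, a log2 difference of 1.38 ± 0.09 (SE) or 2.60-fold. Leaving out any 1 array gave differences from 1.36 to 1.40. Over all genes, 1 had a larger positive difference than PIM1. The gene lies on chromosome 6 at 37170152 to 37175428 of GRCh38.p14.

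PIM2, the kinase of the family best known from lymphoid and plasma cells, had 7.88 and 7.72 after GSK621 and 7.94 and 8.01 after rapamycin and GSK621. Both arrays after rapamycin were higher, but the gap of 0.06 between the groups was smaller than the 0.16 between the GSK621 arrays. Its log2 difference was 0.18 ± 0.11 (SE). PIM3, the third member of the kinase family, had 7.29 and 7.14 after GSK621 and 6.94 and 7.07 after rapamycin and GSK621. It was the one PIM gene with lower values after rapamycin, at a log2 difference of −0.21 ± 0.11, and its groups were 0.07 apart. The 3 kinase genes thus had values in both directions, and the differences of PIM2 and PIM3 were close in size to the spread between their replicates.

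**Figure D1:**
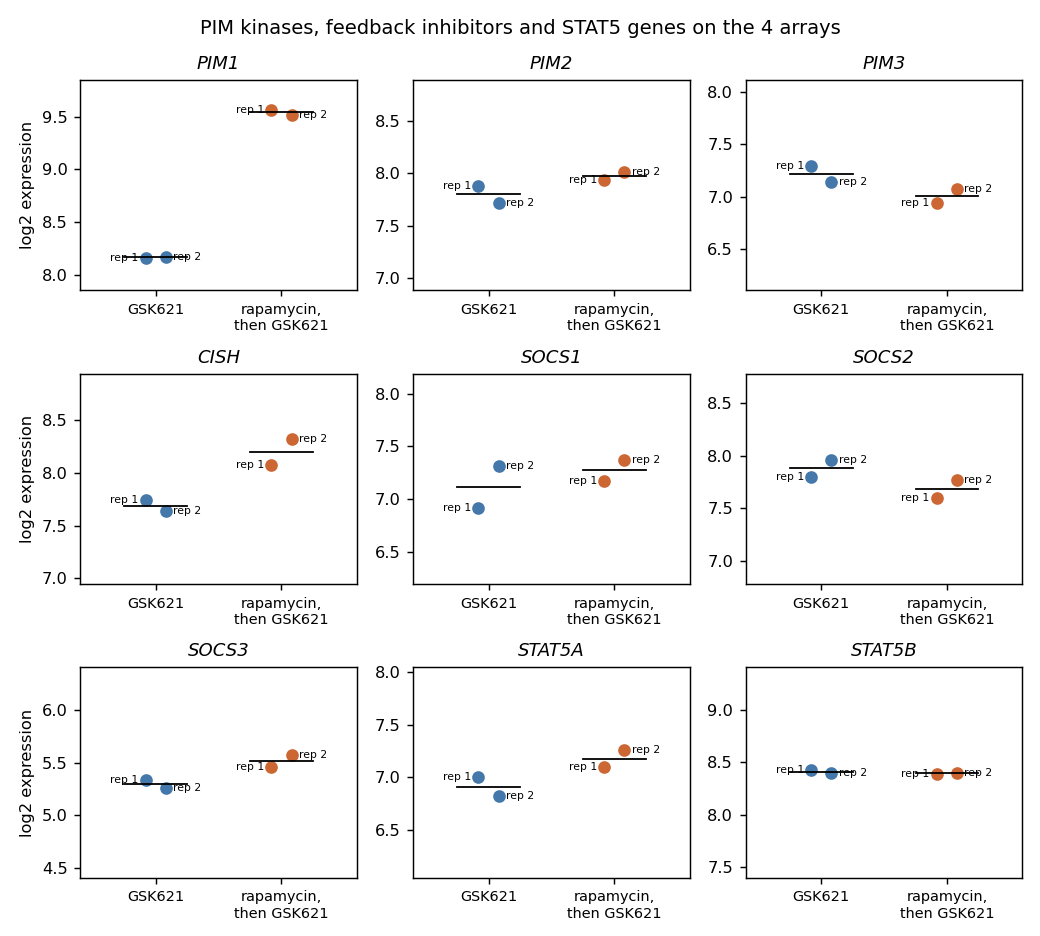
Log2 expression (y axis) of the 9 genes on each array, with GSK621 in blue and rapamycin then GSK621 in orange; points are arrays, black lines are group means of 2 arrays, and every panel spans the same range of log2 units around the mean of its gene. PIM1 stands at 8.16 and 8.17 against 9.57 and 9.52, whereas the groups of SOCS1 overlap and those of STAT5B nearly coincide.

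Among the feedback genes, CISH, whose product occupies STAT5 docking sites on activated receptors, had 7.74 and 7.64 after GSK621 and 8.08 and 8.32 after rapamycin and GSK621. Both arrays after rapamycin were higher, with 0.34 between the nearest arrays of the groups and 0.24 between the arrays after rapamycin. The means were 7.69 ± 0.07 (SD, n = 2) and 8.20 ± 0.17, a log2 difference of 0.51 ± 0.12 (SE) or 1.42-fold. It ranged from 0.39 to 0.63 when 1 array was left out, and 171 genes had a larger positive difference. CISH lies on chromosome 3 at 50606489 to 50611774.

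SOCS3, an inhibitor of Janus kinases that acts at receptors of the interleukin-6 family, had 5.34 and 5.26 after GSK621 and 5.46 and 5.57 after rapamycin and GSK621. Its groups were 0.12 apart, with a log2 difference of 0.21 ± 0.10 (SE). The mean level of this probe set stood at percentile 49.9 of all genes, so the difference is between dim values. SOCS2, best known as a brake on growth hormone signalling, had 7.80 and 7.96 after GSK621 and 7.60 and 7.77 after rapamycin and GSK621. It was lower after rapamycin by a log2 difference of −0.20 ± 0.11, with groups only 0.03 apart and arrays of a group 0.16 and 0.17 apart. With each array centred on its median, the groups of SOCS2 overlapped. CISH and SOCS2, both classic STAT5 targets, thus had differences of opposite sign.

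SOCS1, which blocks the catalytic domain of Janus kinases and is induced by interferons, had 6.91 and 7.31 after GSK621 and 7.17 and 7.37 after rapamycin and GSK621. The groups overlapped, and the 0.40 between the GSK621 arrays exceeded the log2 difference of 0.16 ± 0.16 (SE) between the treatments. Without GSK621 replicate 1 the difference was −0.04, and over the arrays left out in turn it reached 0.36. In both groups SOCS1 was higher in replicate 2, by 0.40 and 0.20. Of 12 interferon-stimulated genes, 11 were also higher in replicate 2 in both groups, against 25.8% of all genes. One of them is IRF1, an interferon-induced transcription factor, named after its values were seen. IRF1 had 8.06 and 8.56 after GSK621 and 7.99 and 8.36 after rapamycin and GSK621. The part of this replicate difference in the SOCS1 values was not tested. SOCS2 was the other member with higher values in replicate 2 of both groups, by 0.16 and 0.17.

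**Figure D2:**
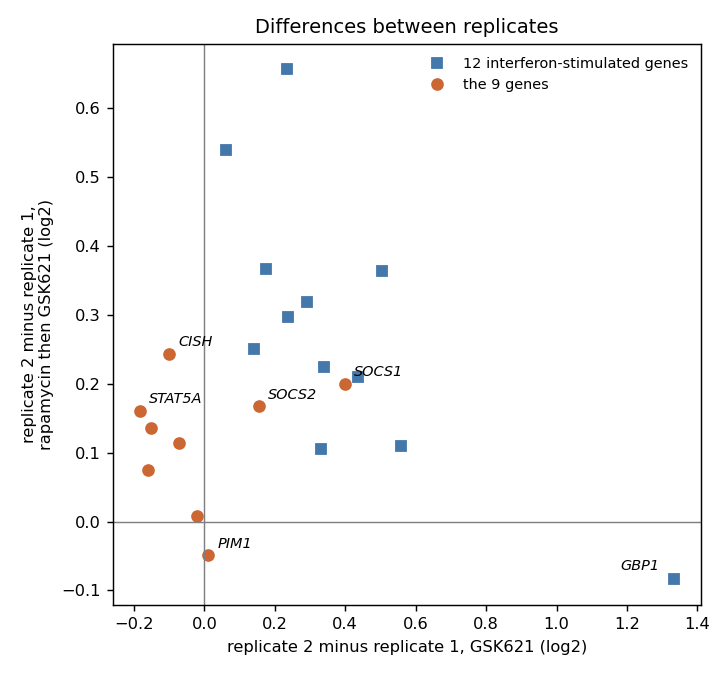
Difference of replicate 2 minus replicate 1 in log2 units within GSK621 (x axis) and within rapamycin then GSK621 (y axis); orange points are the 9 genes and blue squares 12 interferon-stimulated genes. SOCS1 (0.40 and 0.20) lies among the interferon genes, 11 of which are above 0 on both axes, while PIM1 lies near 0 on both.

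STAT5A had 7.00 and 6.82 after GSK621 and 7.10 and 7.26 after rapamycin and GSK621. Both arrays after rapamycin were higher, yet the gap of 0.09 between the groups was smaller than the 0.18 and 0.16 between the arrays within them. Its log2 difference was 0.27 ± 0.12 (SE), and it ranged from 0.18 to 0.36 when 1 array was left out. STAT5B had 8.42 and 8.40 after GSK621 and 8.39 and 8.40 after rapamycin and GSK621, a log2 difference of −0.02 ± 0.09. Its groups were separated by 0.0035 and overlapped after quantile normalization and after centring. The STAT5 genes are closely related neighbours with overlapping spans on chromosome 17, at 42287439 to 42311943 and 42199177 to 42288370, and signal shared between their probe sets cannot be told apart here.

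**Figure D3:**
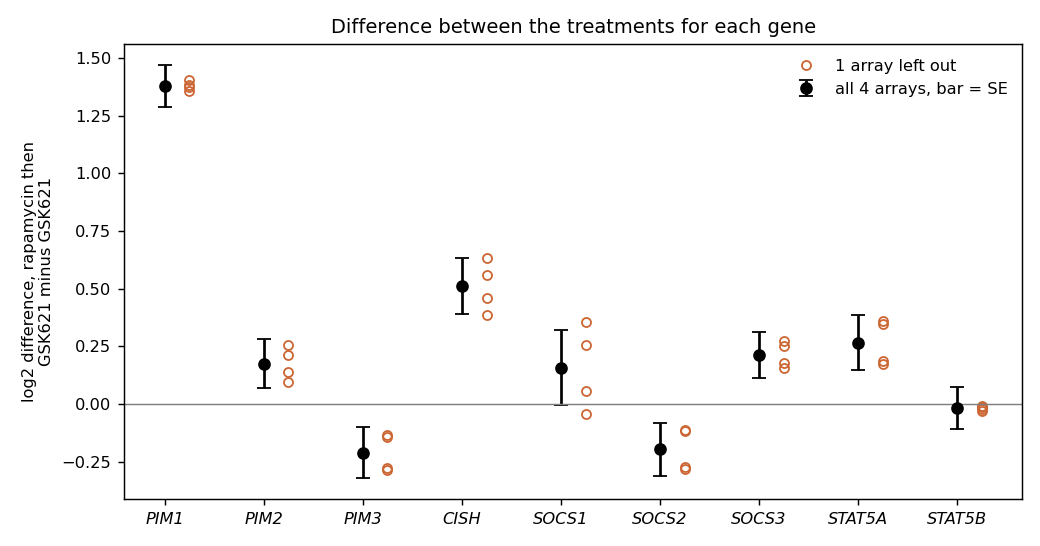
Log2 difference of rapamycin then GSK621 minus GSK621 (y axis) for each of the 9 genes; filled points with bars are the estimate from all 4 arrays ± SE, and open circles are estimates with 1 array left out. PIM1 (1.38) and CISH (0.51) lie highest, and PIM3, SOCS2 and, only just, STAT5B (−0.02) lie below 0. SOCS1 is the gene whose open circles cross 0.

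The genes with a pattern over the 4 arrays most like that of PIM1 were found by the Euclidean distance between values centred on the mean of each gene. This measure picks genes with a difference between the treatments of similar size, so those differences are descriptions. The nearest was ALDH1A3, a retinaldehyde dehydrogenase, at a distance of 0.126 log2 units, with 6.92 and 6.80 after GSK621 and 8.31 and 8.32 after rapamycin and GSK621. OCSTAMP, a membrane protein of osteoclast fusion, followed at 0.250, and TLR2, a receptor for bacterial lipoproteins, at 0.302. The long non-coding RNA gene LINC01255 stood at 0.322 and the arrestin family gene ARRDC4 at 0.330. The GSK621 arrays of ARRDC4 differed by 0.40, whereas those of PIM1 differed by 0.01. No other PIM or SOCS gene and neither STAT5 gene was among these 5, which their smaller differences between the treatments already imply.

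**Figure D4:**
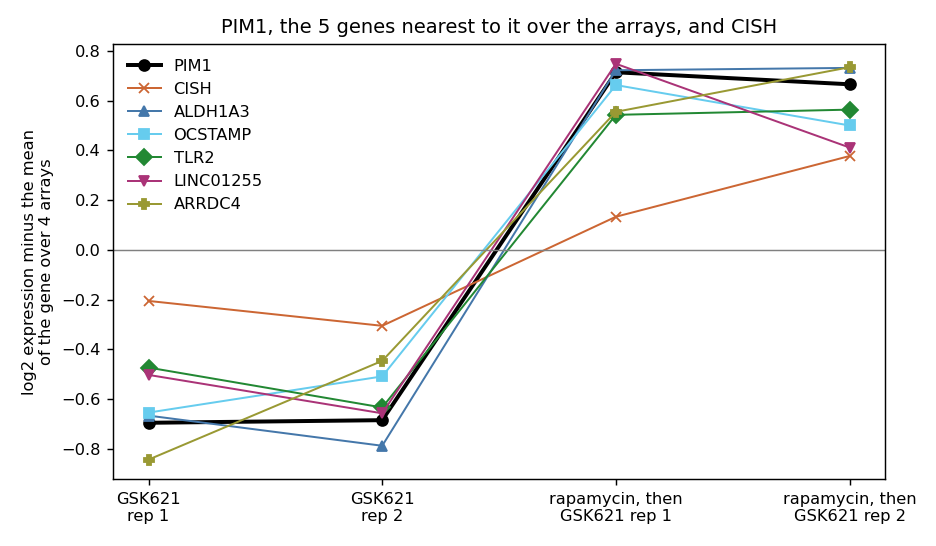
Log2 expression minus the mean of each gene over the 4 arrays (y axis) on each array (x axis) for PIM1, the 5 genes nearest to it and CISH; lines join the values of a gene and imply no order of the arrays. The 5 genes and PIM1 lie below 0 on both GSK621 arrays and above 0 on both others, and CISH has the same signs with smaller values.

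Genes around STAT5 and the PIM kinases were read as 7 lists with 95 entries, of which 90 were measured. Over all genes with limma, 0 of these 90 passed an adjusted p under 0.05. At an unadjusted p under 0.05 there were 15, 10 with higher and 5 with lower values after rapamycin, against 8.51% of all genes (4.31% higher and 4.2% lower). The count was lower with any 1 array left out. Without replicate 1 of rapamycin then GSK621, the share of the list genes was close to that of all genes. The lists were chosen with earlier results of these arrays known, so the counts are descriptions. The median log2 difference over all genes was 0.0045.

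Receptors upstream of STAT5 had differences in both directions, with 12 of 18 above 0 and a median log2 difference of 0.11. By limma 0 passed an adjusted p. At an unadjusted p under 0.05 there were 4 with higher and 3 with lower values, against 4.31% and 4.2% of all genes. IL6R, the interleukin-6 receptor, had 8.52 and 8.53 after GSK621 and 9.05 and 9.04 after rapamycin and GSK621, a log2 difference of 0.52 ± 0.09 (SE; limma adjusted p = 0.430). CSF3R, the receptor of granulocyte colony-stimulating factor, had 0.43 ± 0.10 (limma adjusted p = 0.489), and IL3RA, the interleukin-3 receptor chain, had 0.36 ± 0.09 (0.522). The fourth was FLT3, named after its values were seen, with 10.19 and 10.18 against 10.54 and 10.52. The 3 with lower values, also named after they were seen, were the interleukin-2 receptor chains IL2RB (−0.54 ± 0.15) and IL2RG (−0.26 ± 0.10) and IL6ST (−0.26 ± 0.10), the signalling partner of IL6R. IL6R and its partner thus had differences of opposite sign.

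Of the Janus kinases and other STATs, 7 of 9 were measured and 0 had an unadjusted p under 0.05 with limma (smallest adjusted p = 0.685). JAK2, the kinase of many receptors that signal to STAT5, had 8.32 and 8.64 after GSK621 and 8.00 and 8.35 after rapamycin and GSK621, a log2 difference of −0.31 ± 0.17 (SE) with overlapping groups. STAT3 had −0.13 ± 0.10 and STAT4 0.09 ± 0.13. Among 15 measured other inhibitors of cytokine signalling, 1 had an unadjusted p under 0.05 with limma, against 8.51% of all genes. That gene was PIAS3, an inhibitor of STAT3, with a log2 difference of −0.33 ± 0.11 (limma adjusted p = 0.564). SOCS6 had 0.16 ± 0.10 and PIAS2 0.15 ± 0.09, and the median of the list was 0.05. The SOCS box recruits a ubiquitin ligase. Of 5 genes listed for that ligase, 0 had an unadjusted p under 0.05 with limma (smallest adjusted p = 0.680). The log2 differences were 0.17 ± 0.09 for the scaffold CUL5, 0.16 ± 0.11 for ELOC and −0.06 ± 0.10 for RNF7.

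Other STAT5 target genes were evenly split, with 7 of 14 above 0 and a median log2 difference of −0.02. The 3 with an unadjusted p under 0.05, against 8.51% of all genes, all had higher values after rapamycin, and 0 passed an adjusted p. They were the cyclin gene CCND3 (0.37 ± 0.10, SE), the survival gene BCL2 (0.30 ± 0.09) and the transcription factor gene MYC (0.28 ± 0.09), with limma adjusted p from 0.520 to 0.564. BCL2 had 9.40 and 9.34 after GSK621 and 9.68 and 9.66 after rapamycin and GSK621, with no overlap of the groups. In 6 of the 14 the groups overlapped, in 4 they lay higher and in 4 lower after rapamycin. Over all genes, 39.4% had groups that did not overlap.

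Substrates and partners of PIM kinases had a median log2 difference of −0.03 over 19 genes, of which 12 were below 0. By limma 0 passed an adjusted p. At an unadjusted p under 0.05 there were 3 with higher and 1 with lower values, against 4.31% and 4.2% of all genes. The cell cycle inhibitor CDKN1A, whose protein PIM1 phosphorylates, had 7.77 and 7.97 after GSK621 and 7.36 and 7.32 after rapamycin and GSK621, a log2 difference of −0.53 ± 0.11 (SE; limma adjusted p = 0.436). The transcription factor RUNX1 had 0.38 ± 0.10 and the cell cycle phosphatase CDC25A 0.33 ± 0.11 (limma adjusted p = 0.496 and 0.565). The remaining gene was the stress kinase MAP3K5 (0.26 ± 0.10), named after its values were seen. Of the 12 interferon-stimulated genes, 0 had an unadjusted p under 0.05 with limma between the treatments (smallest adjusted p = 0.713). The groups of all 12 overlapped, whereas 39.4% of all genes had groups that did not overlap. In the interferon list GBP1 had −0.55 ± 0.42, IFIT1 −0.26 ± 0.23 and IFIT2 −0.24 ± 0.15, with arrays of GBP1 at 3.97 and 5.30 after GSK621.

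**Figure D5:**
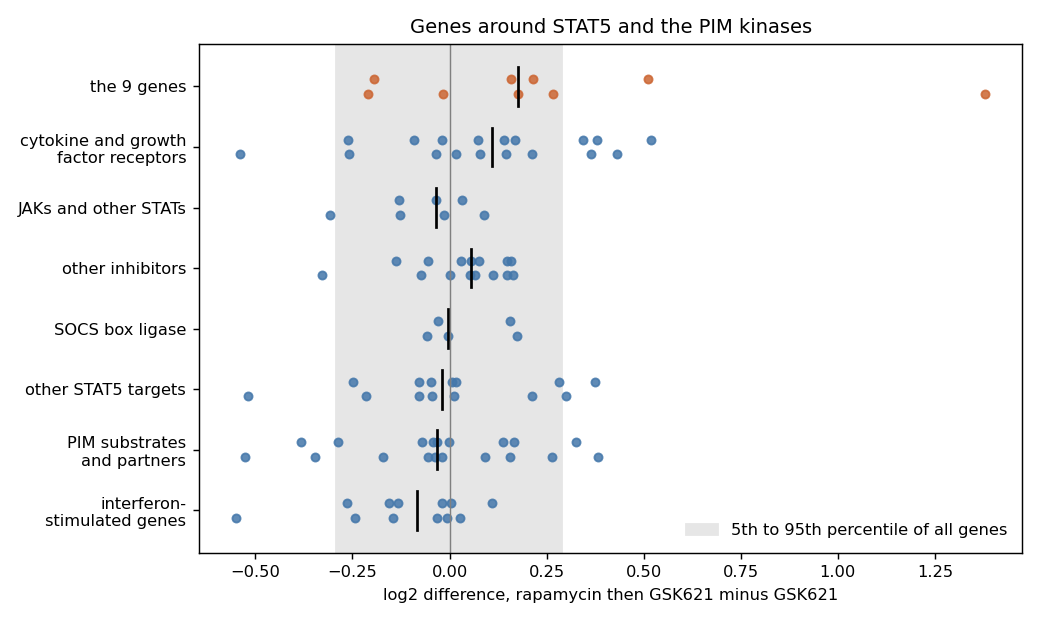
Log2 difference of rapamycin then GSK621 minus GSK621 (x axis) for the 9 genes in orange and for 7 lists of related genes in blue; each point is a gene, black lines are medians, and the grey band spans the 5th to 95th percentile of all genes (−0.29 to 0.29). PIM1 lies at 1.38, and the list medians lie between −0.08 and 0.11.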

How the data were processed

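Total RNA of 4 cultures was hybridised to Affymetrix whole-transcript arrays after biotin labelling, per the labels' protocols. R 2.15.3 and Partek are named, without their roles, per the submitters' processing notes. The authors deposited 1 value per probe set and array, taken here as log2 expression because of their range of 1.84 to 13.28 and the near-equal medians of the arrays. Normalization, background correction, log base and the summary of probes are not stated in the sources used here. Probe sets were named through the platform annotation, with 1 symbol for 24244 and none for 1338, and the probe set with the highest mean was used for 3 genes with several.

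Values were used as deposited. The difference of rapamycin then GSK621 minus GSK621 came from limma 3.58.1 (lmFit and eBayes, two-sided) in R 4.3.3, with Benjamini-Hochberg adjustment over 24241 genes and a threshold of 0.05. The fit had 2 residual and 3.39 prior degrees of freedom. A permutation test of 2 against 2 arrays cannot go below p = 0.333 and was not used. The method was tested on simulated data. Named are all 9 members, the 3 genes with the smallest p in each of 7 lists and the 5 genes nearest to PIM1. Other genes, cell type markers aside, are named as chosen after their values were seen. The members and lists were chosen with earlier results of these data known. Groups and replicate numbers came from the sample titles.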

Additional observations from a re-analysis of the deposited data

How the results depend on the processing

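The count of 0 genes past an adjusted p of 0.05 with limma became 3 among genes above the median level, 74 with a variance trend and robust estimation (20 higher, 54 lower) and 1 without variance moderation. It stayed at 0 under the replicate block, both rescalings, the mean of probe sets and with each array left out (0 to 0). Of the list genes, 15 had an unadjusted p under 0.05, and this count ranged from 6 to 13 with 1 array left out and from 12 to 19 otherwise. With the replicate block it was 18, and over all genes 2168 against 2064 without the block. Groups aside, same-numbered arrays have the replicate number of the titles in common. The correlation over genes between their deviations from the group means was 0.0923. Of the 12 interferon-stimulated genes, however, 11 were higher in replicate 2 of both groups, against 25.8% of all genes. What these arrays have in common beyond the number was not tested. Of the 9 members, 8 kept the sign of their difference under 8 settings each. The replicate block and the mean of probe sets could not alter these differences. Each replicate number occurs once per group, and all 9 members have 1 probe set. Centring shifts the differences of all genes by the same amount. SOCS1 turned to −0.0415 without GSK621 replicate 1, in a range of −0.0415 to 0.357 with 1 array left out. The count of 8 members with groups that did not overlap fell to 7 with quantile normalization and to 6 with centring. With 1 array left out it was 8 to 9, where a lone array overlaps less easily. The lone array was assumed to vary like the other group. The cause of these changes was not tested. In the values as deposited, 39.4% of all genes had groups that did not overlap. That share was not computed under the other settings. The same contrast chose the members, so nothing is read from their counts. The motif count of 1 member was the same in the 250 bases before the start. Depth over background is unknown for these arrays, which limits what can be said of dim genes such as SOCS3.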

Other observations

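Transcripts that neighbour the SOCS genes were read beside them, chosen after their values were seen. SOCS2-AS1, a long non-coding RNA gene on chromosome 12 at 93565628 to 93571398 of GRCh38.p14, shares 1430 bases of its span with SOCS2. It had 8.38 and 8.61 after GSK621 and 8.18 and 8.30 after rapamycin and GSK621, so both arrays after rapamycin were lower. Its log2 difference was −0.26 ± 0.12 (SE; limma adjusted p = 0.633), beside −0.20 ± 0.11 for SOCS2, and both genes were higher in replicate 2 of each group. Where such spans overlap, signal of one gene in the probe set of the other was not tested. SOCS3-DT, on chromosome 17, shares 478 bases of its span with SOCS3, and signal shared between their probe sets was likewise not tested. SOCS3-DT had 4.40 and 4.64 after GSK621 and 4.57 and 4.63 after rapamycin and GSK621. Its groups overlapped, while those of SOCS3 did not.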
